A study of Mus musculus with 9 samples.

Results

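The autosomal CTCF peaks described here stood higher in MommeD43-GFP neural stem cells than in control cells, and did not pass the limit set for a rise in Smchd1 del/del cells. They were selected on measured values: a MommeD43-GFP level of at least -1 on the log2 scale of reads per M reads (RPM), a MommeD43-GFP minus control difference of at least 1, and a Smchd1 del/del minus control difference below 0.5. The rule returned 339 peaks of 158280 that met the level on chromosomes 1 to 19, of 217130 autosomal peaks and 225769 peaks in the whole table. A difference of 1 on this scale is a 2-fold difference in RPM. Because the rule used all 3 columns, the levels and differences of the members describe the choice and carry no test. Location, sequence and spacing were not part of the rule.

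CTCF ChIP-seq, in which DNA bound by CTCF is recovered with an antibody and sequenced, was performed on primary neural stem cells (NSCs) grown from the cortex of female E14.5 embryos on a C57Bl/6 background. MommeD43-GFP cells (3 lines) were homozygous for the MommeD43 point mutation, made by CRISPR on the GFP-tagged Smchd1 allele. Smchd1 del/del cells (2 lines) were made in culture by deleting a floxed allele with a MSCV-Cre-puromycin retrovirus. Control Smchd1 GFP/GFP cells (3 lines) carried the tagged allele without the mutation. The del/del cells had no GFP tag, so deletion, retrovirus with any drug selection and absence of the tag cannot be told apart in any del/del value. An input library was also made, and was not analysed here.

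CTCF is a zinc finger protein that binds a long DNA motif and, with cohesin, anchors chromatin loops and domain boundaries. SMCHD1 is a chromosomal protein of the SMC family that takes part in silencing of the inactive X chromosome, of imprinted genes and of some autosomal gene clusters. In cells without SMCHD1, CTCF is known to gain binding on the inactive X chromosome.

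The sequences of 5 members are given on GRCm38, each as a window of at most 300 bases. The Gm7133 window, on the minus strand of chr1:97202251-97202550, is shown because this was the single member with the core CTCF motif, whose match is in capitals. The Gm42906 window (chr5:151123126-151123425), the Vmn2r42 window (chr7:8229976-8230275) and the Vmn2r49 window (chr7:10020376-10020675) are the middles of the 3 members with the greatest differences. The window at chr15:31827601-31827900, with no gene near it, is the middle of the member with the highest level and was added after its value was seen. These 4 are on the plus strand, and capitals there mark matches to the E-box letters CAGCTG or to the AP-1 letters TGANTCA, which were found in the Vmn2r49 window alone.
Gm7133: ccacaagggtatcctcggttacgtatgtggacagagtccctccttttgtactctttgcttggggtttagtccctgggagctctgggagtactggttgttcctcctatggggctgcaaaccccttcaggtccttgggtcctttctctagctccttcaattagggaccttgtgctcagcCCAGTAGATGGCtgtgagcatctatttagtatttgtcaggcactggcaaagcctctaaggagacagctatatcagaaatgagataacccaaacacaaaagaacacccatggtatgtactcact
Gm42906: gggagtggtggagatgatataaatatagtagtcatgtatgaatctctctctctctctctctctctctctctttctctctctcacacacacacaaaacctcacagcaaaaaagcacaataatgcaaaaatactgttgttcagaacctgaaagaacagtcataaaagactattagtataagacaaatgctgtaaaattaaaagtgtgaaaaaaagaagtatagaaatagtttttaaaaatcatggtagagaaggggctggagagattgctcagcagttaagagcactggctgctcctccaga
Vmn2r42: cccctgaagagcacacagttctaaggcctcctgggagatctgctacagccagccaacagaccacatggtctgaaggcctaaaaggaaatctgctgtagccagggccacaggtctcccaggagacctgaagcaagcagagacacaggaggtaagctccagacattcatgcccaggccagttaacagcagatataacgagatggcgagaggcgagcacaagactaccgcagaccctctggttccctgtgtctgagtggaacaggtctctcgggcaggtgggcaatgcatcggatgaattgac
Vmn2r49: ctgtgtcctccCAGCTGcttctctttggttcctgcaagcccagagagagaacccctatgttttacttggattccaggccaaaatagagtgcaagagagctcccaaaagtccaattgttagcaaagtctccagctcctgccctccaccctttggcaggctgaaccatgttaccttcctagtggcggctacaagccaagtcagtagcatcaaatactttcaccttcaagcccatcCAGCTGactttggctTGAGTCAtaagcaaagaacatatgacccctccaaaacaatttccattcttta
chr15 member: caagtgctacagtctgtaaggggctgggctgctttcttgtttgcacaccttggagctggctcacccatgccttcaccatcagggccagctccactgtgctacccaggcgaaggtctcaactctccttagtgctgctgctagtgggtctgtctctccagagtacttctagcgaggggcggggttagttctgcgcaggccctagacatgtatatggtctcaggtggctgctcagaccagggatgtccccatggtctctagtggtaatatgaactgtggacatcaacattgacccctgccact

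Of the 158280 autosomal peaks at the level floor, 2089 (1.32%) stood at least 1 above control in MommeD43-GFP cells. In 1750 of these the del/del difference was 0.5 or more (raised in both mutants), and the remaining 339, or 0.214% of the peaks at the floor, are the members. Nothing is read from these counts, since the rule made them. The mirrored rule gave a close number: 342 autosomal peaks with a control level of at least -1 stood at least 1 lower in MommeD43-GFP cells with a del/del difference above -0.5. Another 1288 peaks were raised in the null only, by the rule with the mutants exchanged. All these sets share the control column.

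Most members were weak peaks. The MommeD43-GFP level had a median of -0.73 (range -1.0 to 2.42), the del/del level a median of -1.56 (-3.08 to 0.37) and the control level a median of -1.84 (-2.94 to 0.82). Read back into reads per library, these medians were 29.7 reads in MommeD43-GFP, 16.9 in del/del and 11.6 in control. The typical member was therefore a site with few reads in each library, and few reads in control most of all. Of the 339 members, 238 lay between -1 and -0.5 in MommeD43-GFP, 23 were at 0 or above and 8 at 1 or above. Per 1000 peaks, members numbered 4.96 from -1 to -0.5, 2.15 from -0.5 to 0, 0.611 from 0 to 0.5 and 0.176 above that.

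The MommeD43-GFP minus control difference had a median of 1.11 and ran from 1.0 to 2.16. It was under 1.1 in 164 members, 1.5 or more in 18 and 2 or more in 2. The counting standard error (SE) of this difference had a median of 0.29, and in 42 members the difference less 1 counting SE was still at least 1. That error covers read counting only, since each genotype is 1 pooled column and the spread between lines was not available. The del/del minus control difference had a median of 0.28 and ran from -1.02 to 0.50, and in 3 of 339 members the lower bound of its 95% counting interval was above 0. It lay between 0.25 and 0.5 in 188 members and below 0 in 58. For 208 members the upper bound of the 95% counting interval of the del/del difference was below 1. The counts of 3 and 208 describe the choice, since the rule held this difference below 0.5 and its counting SE had a median of 0.35. They do not show that del/del was unchanged. The MommeD43-GFP minus del/del difference had a median of 0.86 (0.50 to 2.44) and was 1 or more in 110 members.

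**Figure D1:**
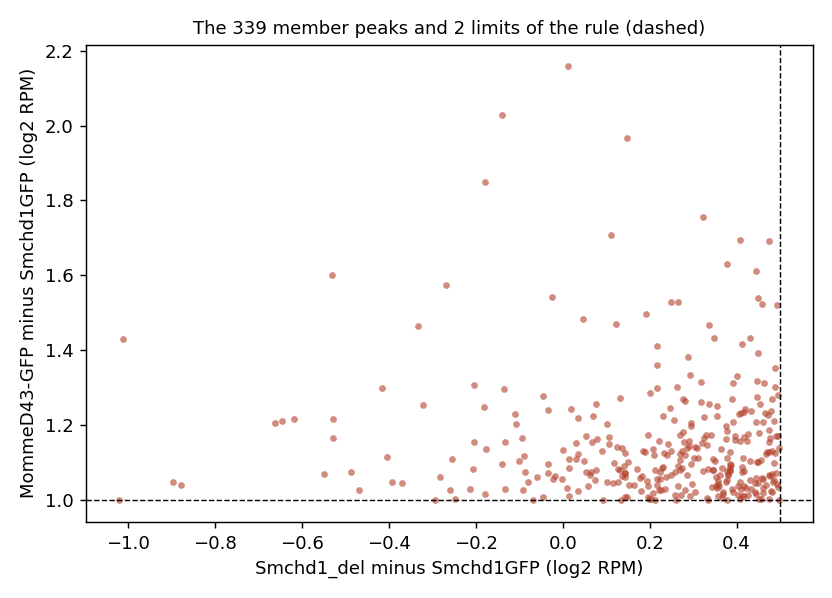
The 339 members by their Smchd1_del minus Smchd1GFP difference (x axis, log2 RPM) and their MommeD43-GFP minus Smchd1GFP difference (y axis, log2 RPM), 1 point a peak, with the limits of 0.5 and 1 dashed. Points crowd against both limits: 164 members are under 1.1 on the y axis and 188 at 0.25 or more on the x axis.

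Peaks on either side of each limit had nearly the same values. Just inside the limit on the rise, the members at Gm11468, Plcb1 and Chsy1 each had a difference of 1.0, while the peaks in Dpp6, Gm42564, Snd1 and Dhx57, just outside, had differences of 0.998 to 0.999. Between 1 and 1.1 there were 164 members, and between 0.9 and 1 there were 354 peaks that met the other limits. At the del/del limit, 90 members lay between 0.4 and 0.5, among them those at Gm11988, Gpc6, Gm49171 and Gm23668, and 109 peaks raised in both mutants lay between 0.5 and 0.6, among them those at Gm11674, Ltbp1, Csmd1 and Neb. At the level limit, 63 members lay between -1 and -0.9, the lowest being at Gm31452, Gm23292, Gm8584 and Gm16433. There were 64 peaks between -1.1 and -1, the nearest being an intergenic peak on chromosome 13 and those at Tspan8, Col14a1 and Gm43122.

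The pooled values allow a partial view of the libraries behind them, because each is a geometric mean, from which the product of the libraries' whole read counts can be recovered. For 336 members the control product could be read, and in 107 of these (31.8%) even the most even split of it left the highest library with at least 2 times the reads of the lowest. Peaks outside the set with a control level of -2.01 to -1.55, the interquartile range of the members, gave 31.8% of 13201. Other peaks were taken in this way in each genotype, while the members covered their full range of levels. In MommeD43-GFP such a split was needed in 11 of 305 members (3.61%), against 4.82% of 38500 other peaks, and in del/del in 44 of 339 (13%), against 11.0% of 27494 other peaks. No member whose product could be read had a library with 0 reads. These are lower limits of unevenness in raw reads. The depth of each library is not known, so unevenness in RPM cannot be read from them.

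The member with the greatest difference lay in an intron of Gm42906 and within the body of Stard13 (chr5:151122451-151124100). Its level was 1.90 in MommeD43-GFP, -0.24 in del/del and -0.25 in control, a difference from control of 2.16 ± 0.15 (counting SE) or 4.46-fold. The null therefore stood within 0.01 of control here, while the point mutant stood far above both. A second member of 750 bp lay next to it, also intronic in Gm42906, at -0.11 in MommeD43-GFP, -1.83 in del/del and -1.41 in control. These 2 peaks spanned 2.70 kb, and no other peak lay between them.

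The highest member (chr15:31826851-31828650) had no gene within 50 kb, its nearest gene start being 93213 bp away. It stood at 2.42 in MommeD43-GFP, 0.29 in del/del and 0.82 in control, so the null was lower than control by 0.53 while the point mutant was 1.60 ± 0.11 (counting SE) above it. A like pattern was seen at the promoter of the pseudogene Gm48667, at 1.57 in MommeD43-GFP, -0.38 in del/del and 0.52 in control. That peak had 7 near-identical copies in the genome. At a coding exon of Naip6, a gene for a sensor of the inflammasome, the levels were 1.22 in MommeD43-GFP, -0.40 in del/del and 0.15 in control.

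A coding exon of Fbxo43, whose product inhibits the anaphase-promoting complex in meiosis, held a peak at 1.45 in MommeD43-GFP, -0.12 in del/del and -0.09 in control. An intergenic peak near the pseudogene AC115752.2 was at 1.19 in MommeD43-GFP, -0.32 in del/del and -0.12 in control. In both, the del/del and control levels lay within 0.20 of each other. The longest members were largely the highest ones: Gm48667 (1950 bp), the chr15 peak (1800 bp), Gm11468 (1800 bp), Gm42906 (1650 bp), and Naip6 and AC115752.2 (1500 bp each). The peak near the lincRNA Gm11468, at 1.05 in MommeD43-GFP, 0.26 in del/del and 0.05 in control, was also the member closest to the limit on the rise.

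The other large differences came from low peaks. Near Vmn2r42 and Vmn2r49, which encode pheromone receptors of the vomeronasal organ, the differences were 2.03 ± 0.39 and 1.97 ± 0.34 (counting SE). The Vmn2r42 peak stood at -0.91 in MommeD43-GFP, -3.08 in del/del and -2.94 in control, or 26.1 reads per library in MommeD43-GFP and 5.43 in control. Both lie in stretches with near-identical copies, 5 for the Vmn2r42 peak and 2 for the Vmn2r49 peak. Peaks near Mir680-3, Gm5715, Zfp120 and Gm21221, at the promoters of Gm3912 and Gm49622, and in introns of Fgfr2 and Elavl2 had differences of 1.57 to 1.85. Fgfr2 encodes a receptor for fibroblast growth factors. By annotation it was the single gene of the NSC list with a member. That was 1 of 637 peaks at the floor (1.57 per 1000, beside 2.14 over all autosomal peaks). Its peak of 300 bp overlaps the annotated bodies of both Fgfr2 and Oat, and alphabetical order gave it the name Fgfr2. The peak therefore cannot be assigned to Fgfr2 alone. It was at -0.95 in MommeD43-GFP, -2.24 in del/del and -2.65 in control. Elavl2, a neuronal RNA-binding protein, had 2 intronic members 67.2 kb apart from end to end.

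**Figure D2:**
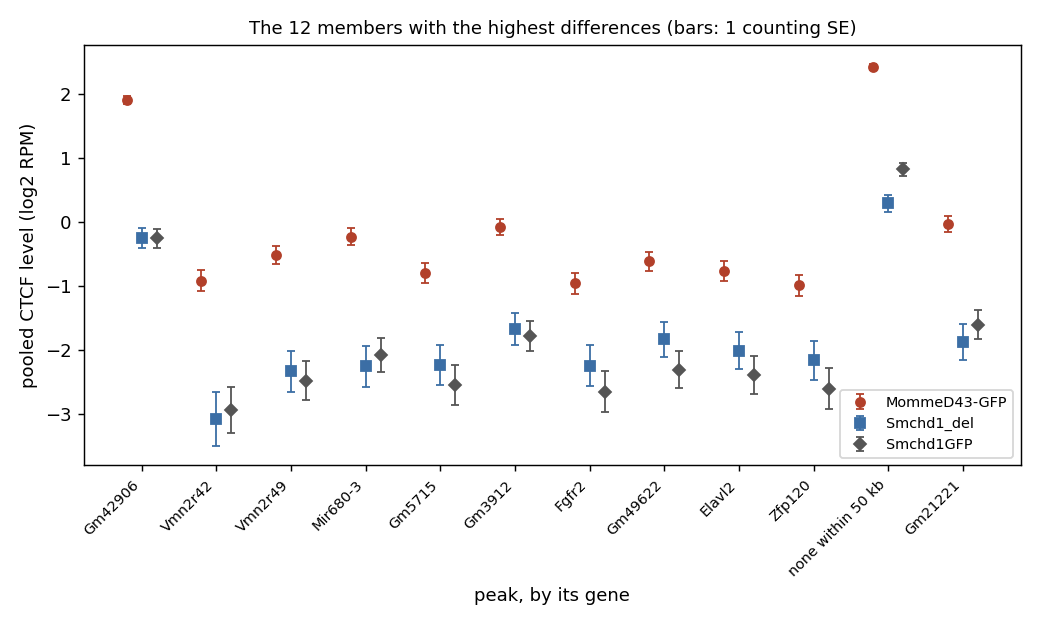
Pooled CTCF level (y axis, log2 RPM) of the 12 members with the greatest MommeD43-GFP minus Smchd1GFP differences, named on the x axis by gene. Circles are MommeD43-GFP, squares Smchd1_del and diamonds Smchd1GFP, and bars show 1 counting SE. At Gm42906 and the chr15 peak MommeD43-GFP stands at 1.90 and 2.42, and at the other 10 it lies below 0.

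By location, 23 members (6.78%, exact 95% binomial interval 4.35 to 10.0) lay at a promoter, within 1 kb of an annotated transcription start. The share was 15.4% among all autosomal peaks at the floor and 9.05% among those with a MommeD43-GFP level of -1 to 0, where 316 of the 339 members lay. It was 6.91% among peaks raised in both mutants, 8.85% among those raised in the null only and 11.4% among those lowered in the point mutant only. The interval of the members thus included the shares of the weak peaks, the peaks raised in both and those raised in the null only. A further 164 members (48.4%) lay in a gene body and 152 (44.8%) between genes. These shares were 49.0% and 42.0% in peaks from -1 to 0, and 47.4% and 37.2% in all peaks at the floor. Of the members in gene bodies, 150 were intronic, 10 touched a coding exon, 3 a UTR and 1 another exon. Among peaks from -1 to 0, 33255 of 41267 in gene bodies were intronic. Those peaks were longer, with a median of 750 bp against 600 bp in members.

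Promoters of protein-coding genes held 7 members (2.06%, exact interval 0.834 to 4.21), all low in difference. The share was 4.93% in peaks from -1 to 0 and 10.5% in all peaks at the floor, both above that interval. It was 3.60% in peaks raised in both mutants, 4.58% in those raised in the null only and 5.26% in those lowered in the point mutant only. The 7 members were named for Dnah8, a dynein heavy chain of the axoneme (1.15), and Mthfd1l, a mitochondrial folate enzyme (1.09). Next came Gnpnat1, an enzyme of UDP-GlcNAc synthesis (1.08), Tcstv1 (1.06) and Ap5m1, a subunit of an adaptor complex (1.05). Last were Lrrc66 (1.03) and Kcnj13, a potassium channel (1.03). The Dnah8 peak lay in the body of Glo1, the Gnpnat1 peak also in that of Styx and the Kcnj13 peak also in that of Gigyf2. Such peaks cannot be assigned to 1 gene alone. Each value is the log2 difference of these 7 members from control. At Lrrc66, the highest of them, the level was 0.37 in MommeD43-GFP, -0.20 in del/del and -0.66 in control. At Dnah8 it was -0.87 in MommeD43-GFP, -2.15 in del/del and -2.02 in control. Several of these starts belong to alternative transcripts: the members at Mthfd1l and Gnpnat1 lay 39930 and 17913 bp from the closest gene start.

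Members spread over many genes. Of the 339, 296 could be given a gene, 287 different ones, of which 164 were protein-coding, and 43 lay outside genes with no gene start within 50 kb. The distance to the nearest gene start exceeded 100 kb in 13% of members (exact interval 9.59 to 17), against 9.29% of the peaks from -1 to 0. A single gene, the non-coding 9530036O11Rik, held 3 members, all intronic, at differences of 1.04 to 1.21. Nos1ap, Tg, Vmn2r49, Fam155a, Elavl2, Gm42906 and Naip6 were given 2 each.

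Among the gene lists, long neuronal adhesion, channel and synapse genes held 9 members of 3466 peaks at the floor (2.60 per 1000), beside 2.14 per 1000 over all autosomal peaks. All were intronic, among them those in Cdh13, Csmd3, Gabrg3, Gpc6, Nrg1, Opcml, Ptprt and Rbfox1, genes for a cadherin, a GABA receptor subunit and other neuronal proteins. The greatest of these differences was at Nrg1, a growth factor of the neuregulin family (1.26). Imprinted genes held 1 member of 295 peaks, in a stretch where the potassium channel gene Kcnq1 overlaps its antisense RNA Kcnq1ot1, with levels of -0.73 in MommeD43-GFP, -1.54 in del/del and -1.74 in control.

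The Hox clusters, which SMCHD1 is known to regulate, held 0 members of 45 peaks, a count that allows a share of up to 6.67%. Neuron markers (172 peaks), astrocyte and oligodendrocyte markers (72), microglia, endothelial and mesenchymal markers (109), CTCF and cohesin genes (75) and polycomb genes (128) also held 0, which allows shares of up to 1.74% to 4.17%. With 0.214% of all peaks being members, these lists were too small to show a lower share. RNA data were not analysed here, so the identity of the cells was not checked from expression.

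Few members held the CTCF motif. The core CTCF motif was found in 1 of 339 members (0.295%, exact 95% interval 0.0075 to 1.63), against 6.46% of peaks raised in both mutants, 5.98% of those raised in the null only and 5.19% of all peaks at the floor. Among peaks from -1 to 0 the share was 0.595%, inside the interval of the members, and it was 0.877% among those lowered in the point mutant only. The motif member, in an intron of the pseudogene Gm7133, was near every limit, at -0.99 in MommeD43-GFP, -1.58 in del/del and -2.05 in control. A relaxed form of the motif was found in 23 members (6.78%), against 25.4% of peaks raised in both and 7.03% of peaks from -1 to 0. Of the 23 members at 0 or above, none held the core motif and 7 held the relaxed form. The nearest strong peak with the core motif (a level of at least 1 in each genotype) was a median of 188 kb from a member, against 166 kb for peaks from -1 to 0. This distance was greater in the other changed sets. It was 225 kb for peaks raised in both mutants, 248 kb for those raised in the null only and 258 kb for those lowered in the point mutant only.

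Short motifs of other factors were counted on both strands. The AP-1 letters TGANTCA occurred in 20.9% of members and 20.9% of peaks from -1 to 0, and the E-box letters CAGCTG in 31.0% of members and 38.7% of those peaks. The TEAD letters GGAATG occurred in 37.2% of members and 37.3% of those peaks, and the SOX letters ACAAAG in 42.5% of members and 46.0% of those peaks. Members were shorter, and per 100 kb of sequence the counts were 36.0 against 32.7 for AP-1, 59.2 against 69.5 for the E-box, 68.7 against 65.2 for TEAD and 86.0 against 87.6 for SOX. A match is a run of letters and not a bound site.

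Members had a median length of 600 bp (300 to 1950), against 750 bp both in peaks raised in both mutants and in peaks from -1 to 0, and 900 bp in all peaks at the floor. Lengths of 1 kb or more were rare, since 318 of 339 members were shorter. The 23 members at 0 or above had a median of 1200 bp. GC content had a median of 46.0% in members, 44.4% in peaks raised in both, 47.9% in peaks from -1 to 0 and 48.0% in all peaks at the floor. Repeat-masked sequence filled at least 50% of the peak in 19.2% of members (exact interval 15.1 to 23.8), against 16.0% of peaks from -1 to 0 and 30.4% of peaks lowered in the point mutant only.

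A near-identical copy elsewhere in the genome, at 95% identity or more over at least 50% of the peak, was found for 17 members (5.01%, exact interval 2.95 to 7.91). This share was 2.18% in peaks from -1 to 0, 1.71% in peaks raised in both mutants, 6.06% in those raised in the null only and 9.94% in those lowered in the point mutant only. The member with most copies, 18, lay in the body of Upp2, a uridine phosphorylase gene. Others lay at or near genes of multigene families and pseudogenes, among them Vmn2r42, Vmn2r49, Gm3912, Naip6, Olfr338, Olfr1028, Tcstv1, Gm49328, Gm6943 and Gm48667, and some lay elsewhere. In all, 10 of the 17 had a copy within 1 Mb. Reads from such copies can be placed at either one, so these values are uncertain. Of the 3 greatest differences, 2 were in this class. Without the 17, 322 members were left, with 6.21% at a promoter, 0.311% with the core motif and 2.48% with another member within 100 kb.

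**Figure D3:**
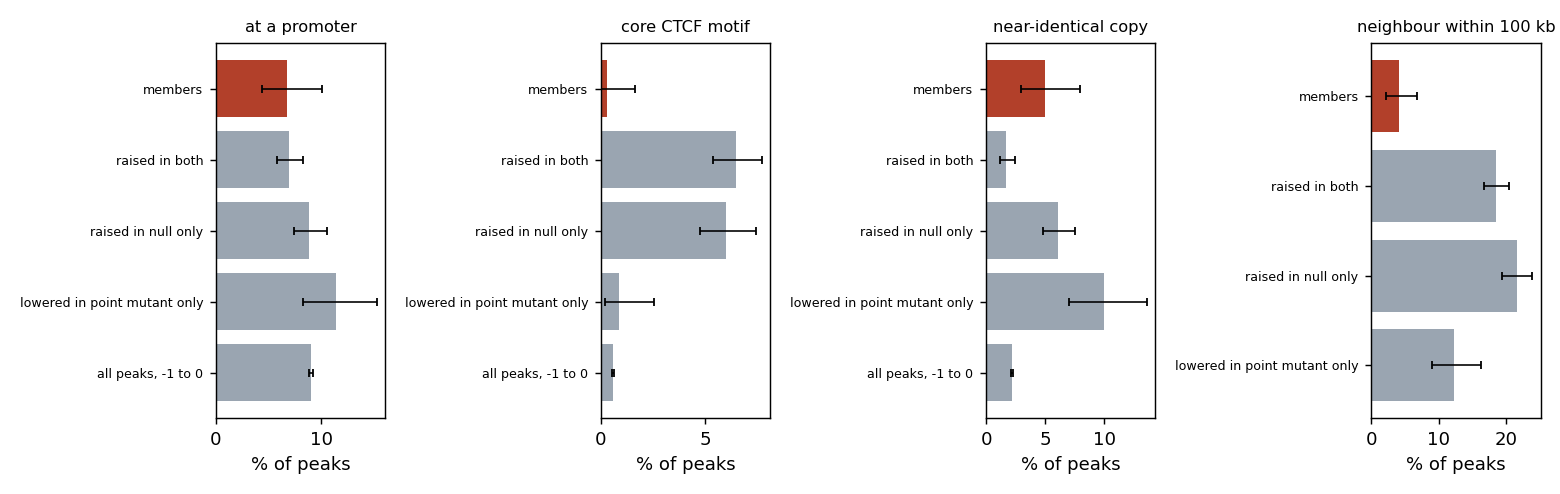
Share of peaks (x axis, %) that lay at a promoter, held the core CTCF motif, had a near-identical copy, or had another peak of the same set within 100 kb. Rows are the members, the 3 other sets of changed peaks and, in the first 3 panels, all autosomal peaks from -1 to 0, and bars show the exact 95% binomial interval. The members are lowest of the 4 sets for the motif (0.295%) and for neighbours (4.13%). The sets differ in size, and larger sets are denser.

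Few members lay close together. No share was computed for as many peaks placed at random, so the members are not shown to be more spread out than such peaks. Only 14 (4.13%, exact interval 2.28 to 6.83) had another member within 100 kb, as 7 pairs, and there was no group of 3. The share was 2.48% without the members that have near-identical copies, which take part in the pairs near Vmn2r49, at Naip6 and between Gm49328 and Gm9229. Of the peaks raised in both mutants 18.5% had a neighbour of their own set at this distance, of those raised in the null only 21.6%, and of those lowered in the point mutant only 12.3%. The first 2 of these sets are larger and therefore denser, while the lowered set is of like size with 342 peaks. That set is itself concentrated, with 23 peaks at 18 to 28 Mb of chromosome 12 and 28 at 30 to 40 Mb of chromosome 15. Its largest group at a gap of 1 Mb held 26 peaks. Within 1 Mb, 100 members (29.5%) had a neighbour, against 39.8% of the peaks lowered in the point mutant only. Neighbouring peaks are not independent, so these intervals are narrower than the true uncertainty.

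The 7 pairs lay in Elavl2, 9530036O11Rik, Gm42906 and Tg, the thyroglobulin gene, at Naip6, near Vmn2r49 and between Gm49328 and Gm9229. In 3 of them the other peaks of the span also stood above control in MommeD43-GFP: their median difference was 1.32 for the 2 near Vmn2r49, 0.72 for the 6 between Gm49328 and Gm9229 and 0.82 for the 3 at Naip6. The same peaks had median del/del differences of -1.08, -0.11 and -0.26. In Elavl2, 9530036O11Rik and Tg the peaks between the members had medians of -0.07, 0.05 and -0.27 in MommeD43-GFP. At a gap of 1 Mb the largest group had 5 members over 974 kb, the 3 of 9530036O11Rik with those near Nom1 and Gm42570, and the 127 other peaks in that span had a median difference of 0.02. The group next in size held 4 members over 515 kb on chromosome 15, at 9130002K18Rik, Cox6c, Fbxo43 and Gm9501, among 63 other peaks with a median of -0.12.

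Peaks around members had median differences close to those of the rest of the autosomes. The 348 other peaks within 5 kb of a member had a median MommeD43-GFP minus control difference of 0.07, and 16.1% of them were at 0.5 or more, against 0.01 and 11.4% for all 216791 other autosomal peaks. Their median del/del minus control difference was -0.02, against -0.04 for all. From 5 to 10 kb the MommeD43-GFP median was 0.03, and from 50 to 100 kb it was 0.01.

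Members were found on every autosome, at 1.05 per 1000 peaks at the floor on chromosome 11 (10 members, exact interval 0.503 to 1.93) to 3.37 on chromosome 7 (35 members, 2.35 to 4.69). The intervals of all chromosomes but 4, 7 and 11 included the 2.14 per 1000 of all autosomes. On chromosome 7, 5 members lay in the first 12 Mb, among 297 peaks at the floor, and these were the members at Gm3912, Vmn2r42 and Vmn2r49 with 1 at Gm20399. Between 18 and 28 Mb of chromosome 12 there were 6 members among 505 peaks, beside 23 peaks lowered in the point mutant only. Between 30 and 40 Mb of chromosome 15 there were 5 members among 651 peaks, beside 28 lowered ones, so peaks set apart in either direction shared these stretches. Within 5 Mb of Smchd1 itself there were 4 members among 912 peaks. Vomeronasal receptor genes held 3 members of 325 peaks, olfactory receptor genes 2 of 865, zinc finger genes 1 of 1342 and pseudogenes 44 of 15844.

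**Figure D4:**
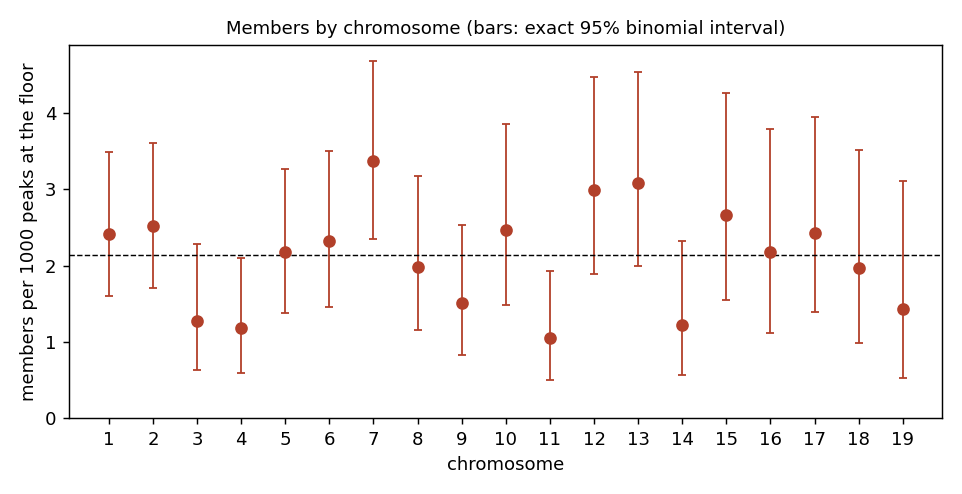
Members per 1000 autosomal peaks at the level floor (y axis) on each chromosome (x axis), with the exact 95% binomial interval as bars and the rate of all autosomes, 2.14, as a dashed line. Chromosome 7 is highest at 3.37 and chromosome 11 lowest at 1.05.

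The set depended on its limits. With 0.1 RPM added to each value before the log, 93 peaks met the rule, 57 of them members. With each column centred on its autosomal median the number was nearly the same, 338, but 279 of these were members.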

How the data were processed

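CTCF ChIP-seq was analysed for 3 genotypes of female NSCs: 3 MommeD43-GFP, 2 Smchd1 del/del and 3 control libraries. The submitters' processing notes and the study's methods name Bowtie2 2.3.4.1 as aligner on GRCm38, with adapters removed by cutadapt 2.9 in Trim Galore 0.4.4, and FastQC 0.11.8 and SAMtools 1.7. SeqMonk served to find peaks per genotype, and overlapping ones were joined. The deposited values are log2 RPM per merged peak, averaged by the authors over the libraries of a genotype and not divided by peak length. Longer peaks therefore hold more reads at equal density. Duplicate removal is not given in the sources used here.

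The table used here holds pooled columns only, so differences of log2 values were taken and no test was run. The values step in whole products of read counts with 0 entered as 0.9 (99.96%, 98.9% and 99.8% of products under 100000 whole to 0.01 in MommeD43-GFP, del/del and control). This gave reads per library, a geometric mean library size of 49.2 M, 50.0 M and 41.7 M in the same order, and counting errors. Peaks were assigned with GENCODE M21 (promoter if 1 kb or less from a transcript start, then gene body, then the nearest start within 50 kb). Where genes overlap, a protein-coding gene was named first, and then the first name in alphabetical order. Motifs were searched on both strands and copies with minimap2 2.31. Python 3.11.15, pandas 2.3.3 and scipy 1.17.1 were used, and the decoding and the rule were tested on simulated data. Shares have exact Clopper-Pearson intervals, which cover counting error only.

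The members, gene lists and comparison sets were chosen with earlier results of these data known. Peaks named are the 12 greatest differences, the 6 highest, the 6 longest, those at coding promoters or with the core motif, genes with 3 members or more, groups, members in gene lists and the 4 peaks on each side of each limit. Members in pairs, with copies or with 2 in a gene were named after their values were seen. Alternatives were other scalings, limits, a pseudocount and feature definitions.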

Additional observations from a re-analysis of the deposited data

How the results depend on the processing

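Column centring, quantile normalization, removal of a trend with level, centring by GC content and leaving out long peaks or, chosen after seeing the data, peaks with copies kept the count within 1.5 times of 339 (253 to 339). The peaks themselves changed more than the count. Of the 339 members, 279 were kept with column centring, 256 with the trend removed, 232 with quantile normalization and 204 with centring by GC content. The count moved to 23 with a level floor of 0, 729 with a floor of -2, 18 with a rise of at least 1.5, 58 with a del/del difference below 0, 1033 with one below 1, 93 with a pseudocount of 0.1 RPM and 42 where the rise less 1 counting SE had to reach 1 (chosen after seeing the data). The share at a promoter was 13% with the floor of 0, 11.1% with the rise of 1.5, 10.3% with the del/del limit of 0, 13.3% within 2 kb of a start and 2.06% with protein-coding starts only. The share with the core motif was 0 under quantile normalization, the floor of 0, the rise of 1.5, the del/del limit of 0, the pseudocount and the counting SE rule, each of which lost the single motif peak, 1.45% with a del/del limit of 1, and 6.78% with the relaxed motif. The share with a neighbour within 100 kb was 0 with the floor of 0, the rise of 1.5 and the del/del limit of 0, 2.48% without peaks that have copies, 9.33% with the floor of -2 and 12% with the del/del limit of 1. It was 29.5% at 1 Mb. Sets with more peaks are denser by construction. No paired analysis was possible because the table holds 1 pooled column a genotype, and leaving out replicates was not possible for the same reason. The low read numbers limit single peaks: a member had a median of 11.6 reads per control library.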

Other observations

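The rule was set for autosomes. On the X chromosome 10 of 5286 peaks at the level floor met the same limits (1.89 per 1000), with MommeD43-GFP minus control differences of 1.0 to 1.20 on the log2 scale. The greatest was at a promoter of Rhox4f, a reproductive homeobox gene, at -0.90 in MommeD43-GFP, -2.63 in Smchd1 del/del and -2.10 in control. The others lay in the bodies of Nox1, Eda and Huwe1, at a promoter of Hmgb1-ps2 and between genes. All 10 stood below 0 in MommeD43-GFP, as most autosomal members did. They are named here after their values were seen, and no test was made. Near-identical copies were searched for autosomal peaks only, so how uniquely reads map at these X peaks was not checked.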
